A study of Danio rerio with 6 samples.

Results

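The cytochrome P450 genes of the zebrafish were followed in whole embryos kept with or without dissolved nucleotides. Members were taken by name, as every gene of the deposited table whose symbol starts with cyp and a digit, except the brain aromatase cyp19a1b, with repeated symbols counted once. They numbered 67 of 14612 genes: 5 of family 1, 35 of family 2, 4 of family 3, 18 enzymes of steroids, bile acids and vitamins, and 5 of other families. The rule uses names only, but it was set with earlier results of these data known. The gene left out, cyp19a1b, passed the test between the arms, as given below. RNA came from pools of 33 to 35 whole embryos at 7 days post fertilization, 3 of them kept in plain embryo medium (control, 0 µM) and 3 exposed to 10 µM of nucleotides dissolved in it (nucleotide). The labels give no strain or length of exposure and do not name the nucleotides. Carbon monoxide, not nucleotides, stands in the title of the deposited table and in the headers of the exposed libraries. The columns were matched to the labels by library name, that mismatch was not resolved, and the exposure is called nucleotide as labelled. Nothing in the labels tells whether pools had different parents, so the p-values speak of the spread over these pools alone, which may be technical.

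P450 enzymes carry a haem group and insert oxygen into their substrates, with electrons from P450 reductase or, in mitochondria, from ferredoxin. Families 1 to 3 oxidise foreign compounds, drugs, fatty acids and steroids, mostly in liver and gut. Some family 1 genes, such as cyp1a, are switched on through the aryl hydrocarbon receptor (AHR), and several family 2 and 3 genes through nuclear receptors such as the pregnane X receptor. Other families make or remove hormones and vitamins, among them cortisol, the vitamin D hormone, retinoic acid and bile acids.

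Related P450 genes often lie side by side and can share reads. In the NCBI RefSeq gene order of the GRCz12tu assembly, 62 of the 67 members were matched, and 37 of them lay in 8 groups with at most 2 coding genes between neighbours. A group of 10 held the cyp2p, cyp2n, cyp2v and cyp2ad genes, and a group of 8 held cyp2aa genes. Other groups held 6 cyp2k genes, 4 cyp2x genes, 3 cyp8b genes, and the pairs cyp1c1 with cyp1c2, cyp3c1 with cyp3c4, and cyp2x10.2 with cyp2x12. Counts of single genes in these groups are uncertain where reads match more than 1 copy. RefSeq treats cyp2aa3 and cyp2aa3v1 as a single gene, but the deposited table lists them under separate gene numbers and they are counted apart here.

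The libraries held 22085223, 18690465 and 23066970 counts in control pools 1 to 3 and 28703789, 25792829 and 31556366 in nucleotide pools 1 to 3. Every nucleotide library was thus deeper than every control library, so raw counts do not compare directly between the arms. P450 genes took 0.300%, 0.301% and 0.289% of the counts in control pools 1 to 3 and 0.287%, 0.256% and 0.213% in nucleotide pools 1 to 3. Levels are given below as CPM, counts scaled per 1e6 of the adjusted library total. Summed over the members, the control pools were at 2820, 2919 and 2784 CPM and the nucleotide pools at 2870, 2654 and 2337 CPM. By CPM, nucleotide pools 2 and 3 were below every control pool and pool 1 lay inside the control range, so the arms overlapped. By share of counts, each nucleotide pool lay below each control pool, without overlap. The adjustment raised the total of each control library and lowered that of each nucleotide library. Whether the summed arms overlapped thus depended on the scaling. A few genes took most of the P450 reads. They were cyp2ad3 with 22.0%, the vitamin D enzyme cyp24a1 with 14.1%, cyp3a65 with 10.6% and cyp3c1 with 6.23%, together 52.9% of P450 counts. These are shares of reads, not corrected for gene length.

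**Figure D1:**
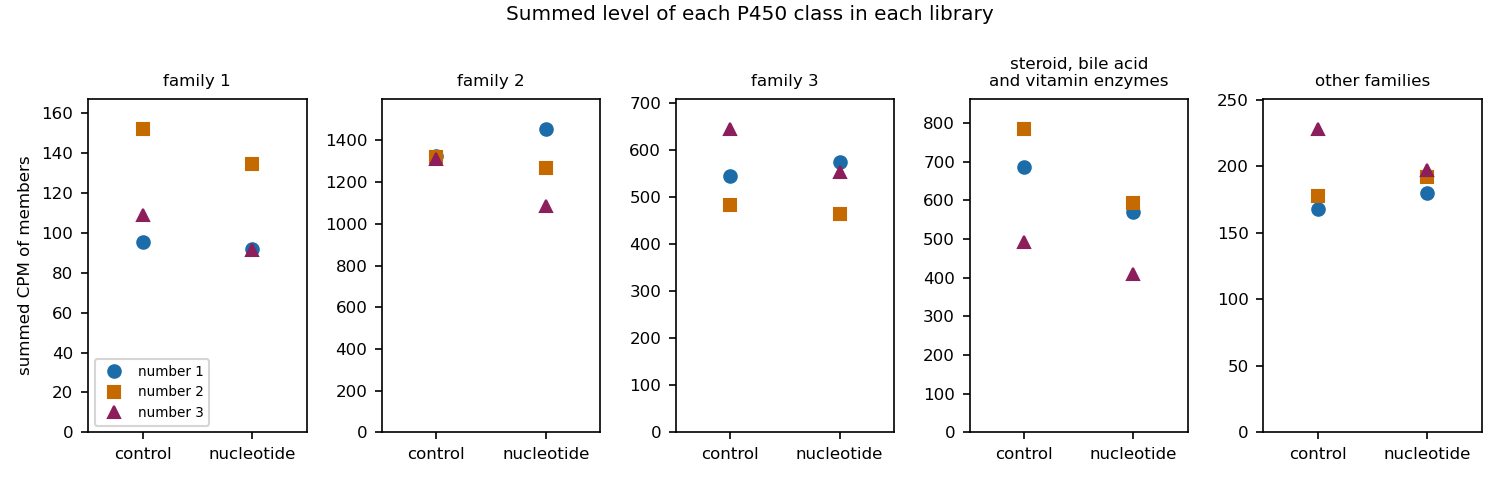
Summed level of each P450 class (CPM) in each of the 6 libraries, with control and nucleotide pools as points. The 2 arms overlap in every class, and in family 2 nucleotide pool 1 is the highest at 1454 CPM and pool 3 the lowest at 1086 CPM.

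The arms overlapped in each class sum. Family 2 was at 1326, 1323 and 1311 CPM in control and 1454, 1270 and 1086 CPM in nucleotide pools. The steroid, bile acid and vitamin class was at 687, 784 and 492 CPM in control and 571, 594 and 409 CPM in nucleotide pools. Each nucleotide pool of that class was below the control pool of the same number in summed level. The gene cyp24a1 alone made up 499, 601 and 279 CPM of these control sums and 388, 410 and 201 CPM of the nucleotide sums. In family 2, cyp2ad3 alone made up 664, 626 and 604 CPM in control and 736, 537 and 430 CPM in nucleotide pools. The sums of these classes, and the sum over all members, thus lean on single genes.

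No P450 member of the chosen set was called between the arms when the pools were treated as unpaired. Of the 67 members, 56 passed the filter on low counts, and 0 of these passed the edgeR quasi-likelihood test at an adjusted p of 0.05, where 0.99% of all 13336 tested genes did (0.937% higher and 0.0525% lower). At an unadjusted p under 0.05 there were 4 members (7.14%), against 14.5% of all genes. The 4 were cyp26c1 and cyp2y3, higher in nucleotide pools (against 8.3% of all genes), and cyp11a1 and cyp17a2, lower (against 6.19%). DESeq2 called 0 members, against 3.79% of all genes. The authors' deposited table also called 0 of the 52 members to which it gave an adjusted p, against 4.12% of all its genes, and its lowest value among members was 0.120, for cyp26c1. The fitted changes were small. The median log2 fold change (nucleotide over control) was -0.04 in members and -0.01 in all genes. On the log2 scale 52 of 56 members lay within 0.5 of 0, as did 12565 of all 13336 tested genes. The range in members was -1.12 to 0.76. The median standard error (SE) was 0.197 on the same scale. The brain aromatase that the choice left out was unlike these, at 2.64 to 3.93 CPM in control and 17.9 to 33.5 CPM in nucleotide pools, which is 2.96 ± 0.262 (SE) higher on the log2 scale (edgeR adjusted p = 0.00171).

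Same-numbered pools of the arms moved together in the data, so the comparison was repeated with the replicate number as a block. It called 9 of 56 members (16.1%), against 19.1% of all genes, so the share of members was not above that of all genes. The vitamin D enzyme cyp24a1, the steroid enzymes cyp11c1 and cyp17a2, the bile acid enzyme cyp7a1a, cyp1a and cyp2u1 were lower, 6 members or 10.7%, against 8.38% of all genes. The retinoic acid enzyme cyp26c1, cyp2y3 and cyp2k6 were higher, 3 members or 5.36%, against 10.7% of all genes. Only 3 of the 9 calls held with each pair left out. Those fits use fewer pools, so a lost call alone does not show that it rested on the pair left out. Without pair 1, 2 or 3 the block fit called 13, 9 and 4 members (against 16%, 15% and 12.5% of all genes). The genes cyp24a1, cyp2u1 and cyp2y3 were called in each of these left-out fits. Some members were called only with a pair left out. These were cyp2ad3, cyp3c4 and cyp4t8 without pair 1, cyp8b1 without pair 2, cyp2p8 without pair 3, and cyp2x10.2 without pair 1 or pair 2. With pools scaled to library totals, an alternative chosen after seeing the data, the block fit called 10 members (against 26.8% of all genes), 9 of them lower, and the overall median moved from -0.01 to -0.14 on the log2 scale. Scaling to library totals added cyp11a1, cyp2aa6 and cyp3c1 to the block calls. In what follows, rose and fell refer to the test with the block, and each such call of a P450 member was lost without it. Counts called, passed or not passed are those of edgeR over all libraries with the main scaling, unless another fit is named.

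**Figure D2:**
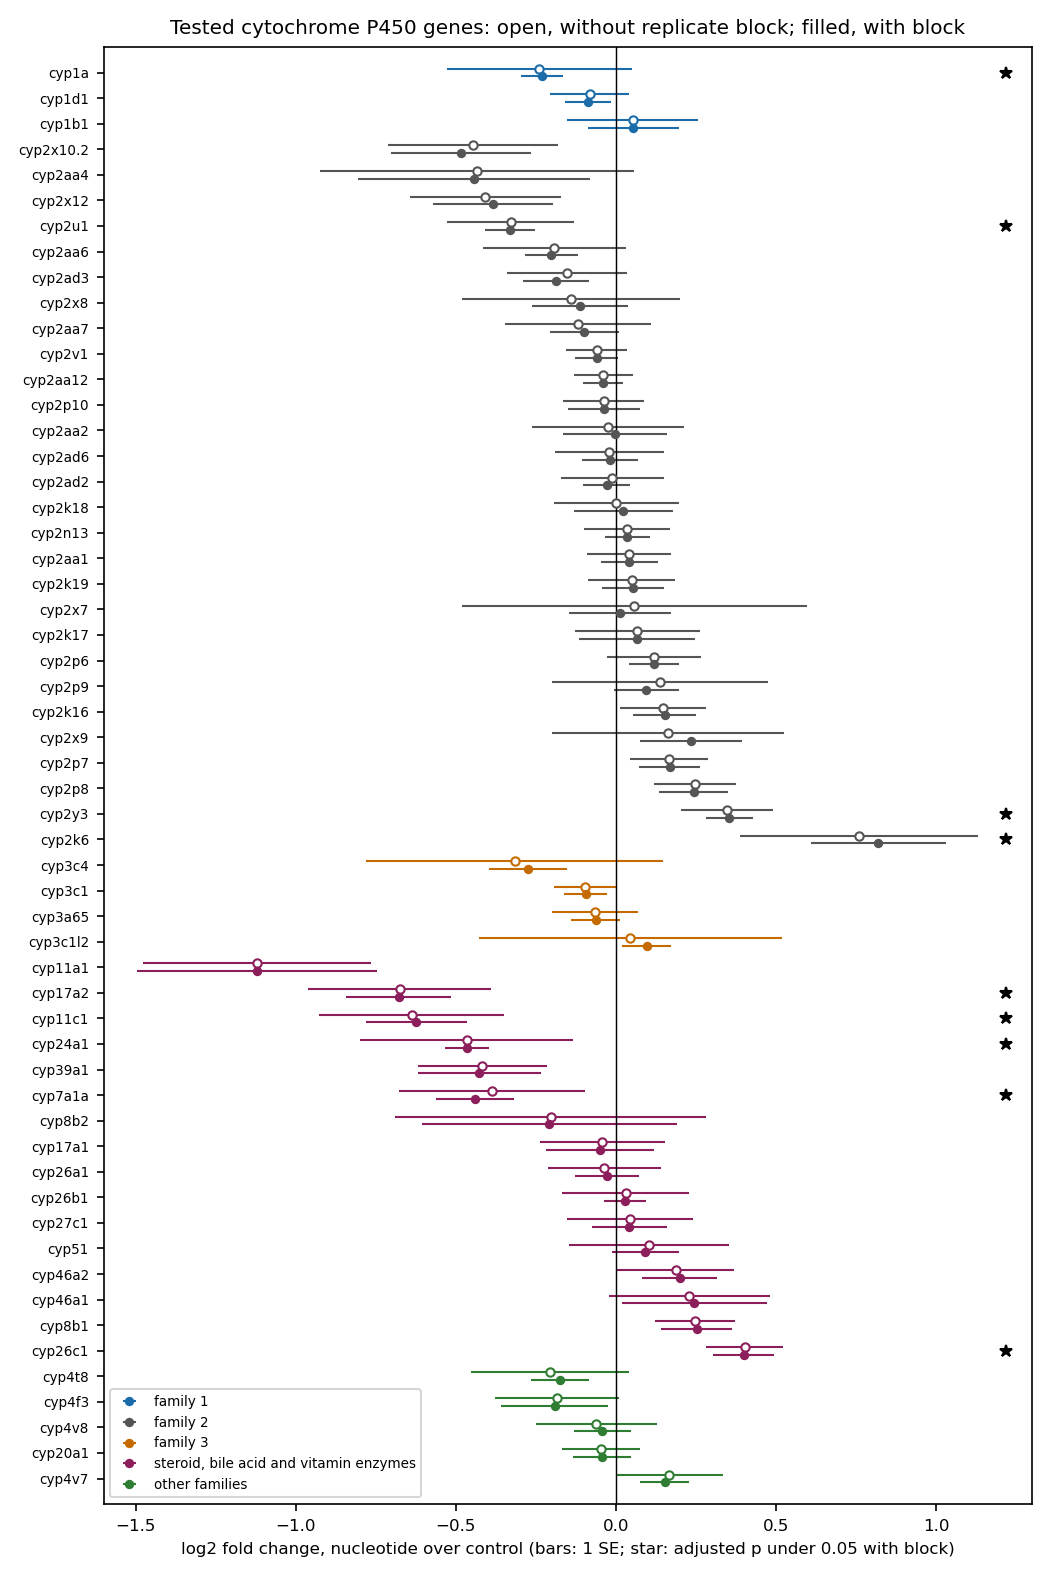
Log2 fold change of nucleotide over control pools with bars of 1 SE for the 56 tested P450 genes, ordered by class. Open symbols are the fit without the replicate block, filled symbols the fit with it, and stars mark the 9 members with a block adjusted p under 0.05; most points lie within 0.5 of 0.

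Of family 1, 3 of 5 members were measurable. The gene cyp1a (NCBI gene 140634), which oxidises polycyclic aromatic hydrocarbons and is the usual marker of AHR activity, was at 50.6, 98.3 and 60.7 CPM in control pools 1 to 3 and at 47.0, 81.9 and 48.7 CPM in nucleotide pools 1 to 3. Pool 2 was the highest of each arm, the arms overlapped, and every nucleotide pool was below its same-numbered control. The log2 fold change was -0.24 ± 0.290 (SE, edgeR quasi-likelihood test, adjusted p = 0.768). With the block it fell by 0.23 ± 0.0665 on the log2 scale, or 1.17-fold (adjusted p = 0.0319). That call was lost without pair 2 (adjusted p = 0.124) or pair 3 (adjusted p = 0.113), and with DESeq2 and the block (adjusted p = 0.101). A further member, cyp1d1 (492344), whose human counterpart is a pseudogene, was at 40.0, 47.2 and 41.7 CPM in control and 39.7, 46.5 and 35.6 CPM in nucleotide pools. The arms of cyp1d1 overlapped (log2 fold change -0.08 ± 0.123 SE, edgeR adjusted p = 0.821). The gene cyp1b1 (100150054), which in mammals metabolises estrogens and aromatic hydrocarbons, was at 4.64, 6.27 and 6.64 CPM in control and 5.06, 5.88 and 7.26 CPM in nucleotide pools. It did not pass the test either (0.05 ± 0.205 SE, edgeR adjusted p = 0.937). The neighbours cyp1c1 and cyp1c2 had 0 counts in all 6 libraries, which allows up to 3 counts, or 0.104 to 0.155 CPM by library.

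Among the genes of AHR signalling, 14 were tested and 0 were called without the block. With the block 0 rose and 3 fell (21.4%, against 8.38% of all genes lower and 19.1% called in either direction). Fitted changes without the block were below 0 in 11 of the 14 and in 7010 of all 13336 genes. With the block, tiparp, an AHR-induced repressor of the receptor, fell by 0.30 on the log2 scale (edgeR adjusted p = 0.00617). The AHR target foxq1a fell by 0.49 (adjusted p = 0.00215) and the receptor's partner arnt2 by 0.21 (adjusted p = 0.0399). The receptor ahr2 itself did not pass (0.16, adjusted p = 0.125), nor did ahrra of the same list (0.03, adjusted p = 0.960).

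Family 2, the largest, had 28 of 35 members tested, and their fitted changes were centred near 0, with 14 above it and 14 below. With the block 2 rose and 1 fell (10.7% called, against 19.1% of all genes). The gene cyp2y3 (368352), of a subfamily found in fish, was at 34.6, 28.3 and 40.2 CPM in control and 43.8, 39.2 and 48.4 CPM in nucleotide pools. Every nucleotide pool was above its same-numbered control, though nucleotide pool 2 was below control pool 3. The log2 fold change was 0.35 ± 0.144 (SE, edgeR adjusted p = 0.325), and with the block cyp2y3 rose 1.28-fold (0.35 ± 0.0723 SE, adjusted p = 0.00616). With the block and library totals its change was 0.23 and the call was lost (adjusted p = 0.0557). The gene cyp2u1 (556280), a fatty acid hydroxylase in mammals, was at 31.1, 30.5 and 21.1 CPM in control and 24.5, 24.6 and 16.7 CPM in nucleotide pools. Pool 3 was the lowest of each arm and each nucleotide pool was below its control, with overlap between the arms. The change was -0.33 ± 0.199 (SE, edgeR adjusted p = 0.504), and with the block cyp2u1 fell 1.26-fold (-0.33 ± 0.0783 SE, adjusted p = 0.0137). DESeq2 with the block, also chosen after seeing the data, called 7 members (against 13.5% of all genes) and lost cyp2u1 (adjusted p = 0.0515) and cyp1a (adjusted p = 0.101).

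The gene cyp2k6 (393481), of another fish subfamily, was at 1.41, 4.30 and 3.47 CPM in control and 3.98, 5.43 and 6.04 CPM in nucleotide pools. Control pool 1 stood low, and each nucleotide pool was above its same-numbered control. The fit gave 0.76 ± 0.372 (log2, SE, edgeR adjusted p = 0.403), and with the block cyp2k6 rose 1.76-fold (0.82 ± 0.211 SE, adjusted p = 0.0196), a call lost without pair 3 (adjusted p = 0.0925). The other 4 tested cyp2k genes, cyp2k16 to cyp2k19, lay between 0.00 and 0.15 on the log2 scale and did not pass. The same holds for all 10 genes of the cyp2p, cyp2n, cyp2v and cyp2ad group, related to mammalian CYP2J, whose fitted changes ran from -0.15 for cyp2ad3 to 0.25 for cyp2p8. The gene cyp2ad3 (569245), with the most reads of any member, was at 664, 626 and 604 CPM in control and 736, 537 and 430 CPM in nucleotide pools. Nucleotide pool 1 was the highest of the 6 libraries and pools 2 and 3 the lowest (-0.15 ± 0.187 SE, edgeR adjusted p = 0.770), and cyp2ad3 is described for its share of reads. The gene cyp2p8 (100034366) was at 22.8, 23.8 and 27.2 CPM in control and 31.7, 31.1 and 24.9 CPM in nucleotide pools (0.25 ± 0.128 SE, edgeR adjusted p = 0.428). In cyp2p8 nucleotide pools 1 and 2 were above all controls and pool 3 was inside their range. The 6 tested cyp2aa genes and the 5 tested cyp2x genes did not pass the test with or without the block.

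Family 3, the zebrafish relatives of the main drug-metabolising CYP3A enzymes of human liver and gut, had all 4 members tested and 0 called with or without the block. The gene cyp3a65 (553969) was at 294, 255 and 333 CPM in control and 313, 252 and 278 CPM in nucleotide pools, which overlapped (-0.07 ± 0.134 on the log2 scale, SE; edgeR adjusted p = 0.873). The gene cyp3c1 (324340) was at 162, 190 and 176 CPM in control and 166, 170 and 158 CPM in nucleotide pools, also with overlap (-0.10 ± 0.0980 SE, edgeR adjusted p = 0.709). Its neighbour cyp3c4 (558541) was at 21.2, 11.1 and 37.5 CPM in control and 22.4, 9.34 and 24.4 CPM in nucleotide pools. Pool 2 was the lowest of each arm (-0.32 ± 0.463 SE, edgeR adjusted p = 0.814). With the block, cyp3c4 was called when pair 1 was left out (edgeR adjusted p = 0.00249). With the block and library totals, cyp3c1 was called (edgeR adjusted p = 0.0421). Of 19 nuclear receptors of foreign compounds and lipids, edgeR called 0 and DESeq2 called 1 without the block (against 0.99% and 3.79% of all genes). With the block 2 rose and 4 fell (31.6%, against 19.1% of all genes). The pregnane X receptor nr1i2 was not among them (log2 fold change -0.11, block adjusted p = 0.298).

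The enzymes of steroids, bile acids and vitamins held 5 of the 9 block calls, from 16 tested members (31.2%, against 19.1% of all genes). Of these, 1 was higher (6.25%, against 10.7% of all genes) and 4 were lower (25%, against 8.38%). All 3 pairs went the same way in 9 of the 16 and in 17 of all 56 tested members (30.4%), against 53.1% of all genes. The largest of them by reads, cyp24a1 (100004700), inactivates the vitamin D hormone and is a target of its receptor. It was at 499, 601 and 279 CPM in control pools 1 to 3 and 388, 410 and 201 CPM in nucleotide pools 1 to 3. Pool 3 was the lowest of each arm, each nucleotide pool was below its same-numbered control, and the arms overlapped. Without the block the change was -0.47 ± 0.333 (log2, SE, edgeR adjusted p = 0.571), and it ran from -0.72 without control pool 3 to -0.20 without nucleotide pool 3. With it cyp24a1 fell 1.38-fold (-0.46 ± 0.0691 SE, adjusted p = 0.00105), and the call held without any single pair, at adjusted p from 4.65e-05 to 0.00469. In bulk RNA of whole embryos, fewer cells of a type and less RNA per cell cannot be told apart. Of 7 tested genes of vitamin D handling, edgeR called 0 without the block and 3 with it (42.9%, against 19.1% of all genes). DESeq2 without the block called 1 of the 7 (against 3.79% of all genes). With the block the hormone fgf23, which in mammals raises CYP24A1, fell by 1.08 on the log2 scale (edgeR adjusted p = 0.0128), while the calcium channel trpv6 rose by 0.38 (adjusted p = 0.0390), as did the vitamin D binding protein gc, by 0.27.

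**Figure D3:**
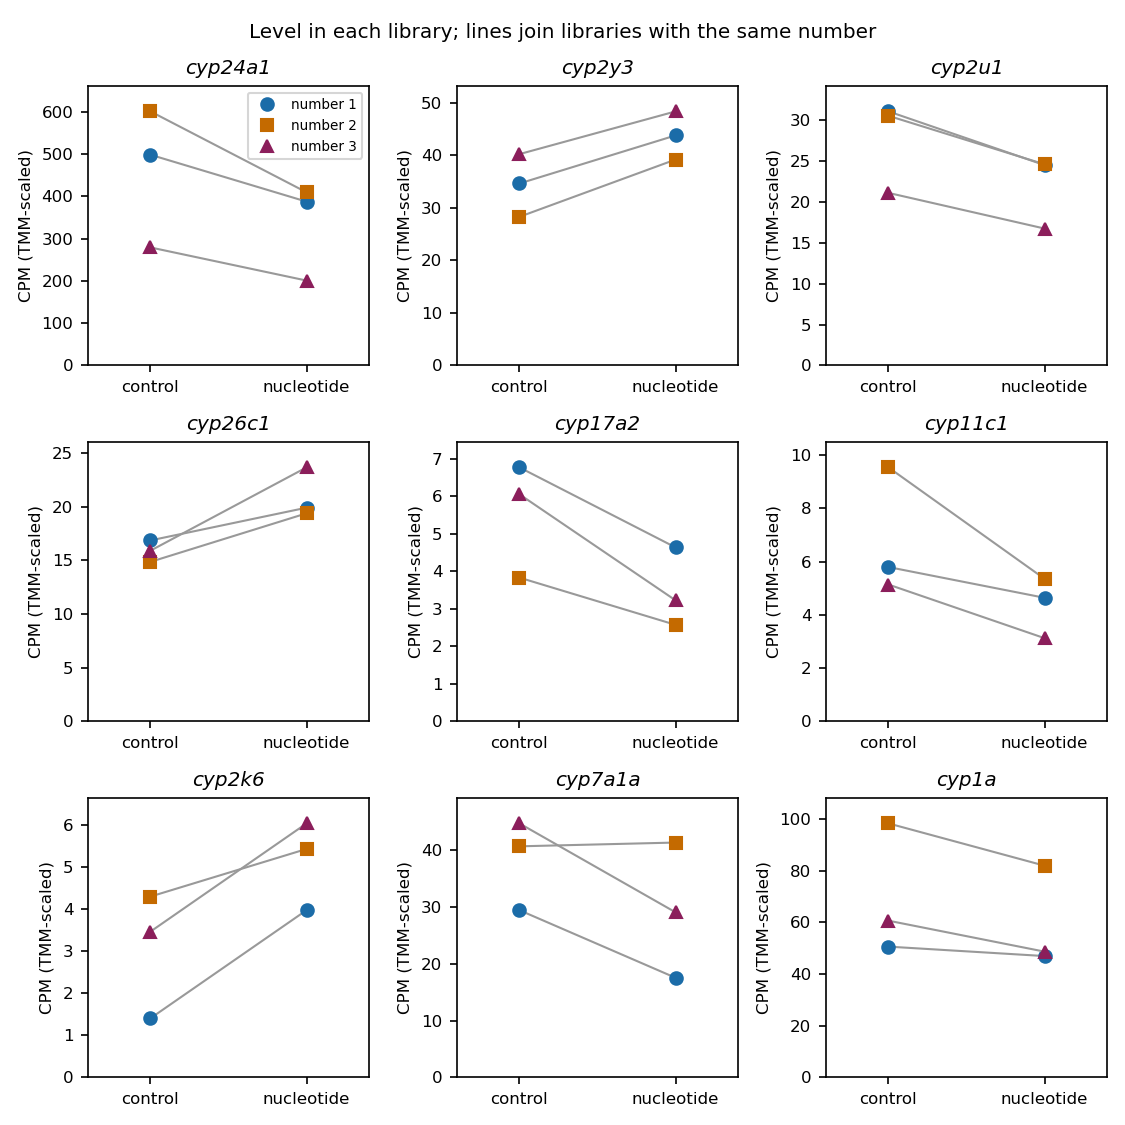
Level (CPM) of the 9 P450 genes called with the replicate block, in each library, with a line joining the control and nucleotide pools of the same number. All 3 lines slope the same way in 8 genes, and in cyp7a1a pair 2 runs against the other pairs.

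Of the steroid hormone enzymes, 4 were measurable and 2 fell with the block, where 8.38% of all genes fell. The gene cyp11c1 (791124), the 11-beta-hydroxylase of cortisol and 11-oxo-androgen synthesis, was at 5.79, 9.53 and 5.14 CPM in control and 4.64, 5.35 and 3.12 CPM in nucleotide pools. Each nucleotide pool was below its same-numbered control, and nucleotide pool 2 was above control pool 3. The change was -0.64 ± 0.290 (log2, SE, edgeR adjusted p = 0.367), and with the block cyp11c1 fell 1.54-fold (-0.62 ± 0.157 SE, adjusted p = 0.0180). That call was lost without pair 2 (adjusted p = 0.120) or pair 3 (adjusted p = 0.0723). The gene cyp17a2 (796487), a steroid 17-alpha-hydroxylase of teleosts, was at 6.77, 3.83 and 6.06 CPM in control and 4.64, 2.58 and 3.23 CPM in nucleotide pools. Pool 2 was the lowest of each arm, and the arms overlapped only through control pool 2 and nucleotide pool 1. The change was -0.67 ± 0.286 (log2, SE, edgeR adjusted p = 0.336), and with the block cyp17a2 fell 1.60-fold (-0.68 ± 0.164 SE, adjusted p = 0.0148). Without pair 3 its adjusted p was 0.0914. Its paralogue cyp17a1 (399692), which also has the lyase step towards androgens, lay between 3.26 and 4.43 CPM in all 6 pools (-0.04 ± 0.196 SE, edgeR adjusted p = 0.947).

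The gene cyp11a1 (80374), the cholesterol side-chain cleavage enzyme that starts steroid synthesis, had 18, 22 and 20 counts in control and 13, 12 and 9 counts in nucleotide pools, or 0.767, 1.14 and 0.835 CPM against 0.454, 0.483 and 0.312 CPM. All nucleotide pools were below all control pools. Its fitted change of -1.12 ± 0.356 (log2, SE) did not pass without the block (edgeR adjusted p = 0.207) or with it (adjusted p = 0.0571), and it passed with the block only when pools were scaled to library totals (adjusted p = 0.0351). Of 15 tested partner genes of steroid synthesis, 0 were called without the block and 1 rose and 1 fell with it (13.3%, against 19.1% of all genes). Among them star, which moves cholesterol to the side-chain cleavage enzyme, was at a log2 fold change of -0.03 (block adjusted p = 0.891). The ferredoxin fdx1b, the electron donor of the mitochondrial steroid enzymes, was at 2.30, 3.16 and 1.75 CPM in control and 1.19, 1.53 and 1.49 CPM in nucleotide pools. All nucleotide values of fdx1b were below all control values (log2 fold change -0.75, block adjusted p = 0.0580). Cortisol is made in the interrenal gland, the fish counterpart of the adrenal cortex. Of 6 interrenal markers 5 were in the table, 3 of them were tested and 0 were called with or without the block. Their summed level was 38.8 to 45.2 CPM in control and 37.1 to 41.6 CPM in nucleotide pools. The marker fdx1b, with its low level, weighs little in that sum. Fitted changes without the block were below 0 in all 3 tested markers (median log2 fold change -0.23), and in 7010 of all 13336 genes. The defining marker hsd3b1 had 5, 0 and 0 counts in control and 0, 0 and 2 counts in nucleotide pools, and the part of interrenal tissue in these values was not tested.

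The cyp26 enzymes break down retinoic acid, and among them only cyp26c1 was called with the block. The cyp26 genes were not tested against each other. The gene cyp26c1 (554036) was at 16.9, 14.9 and 15.9 CPM in control and 19.9, 19.4 and 23.7 CPM in nucleotide pools. Every nucleotide pool was above every control pool, which was so in either direction for 5 of the 56 tested members (8.93%) and for 21.4% of all genes. The change was 0.40 ± 0.120 (log2, SE, edgeR adjusted p = 0.190), and with the block cyp26c1 rose 1.32-fold (0.40 ± 0.0957 SE, adjusted p = 0.0142). The call was lost without pair 3 (adjusted p = 0.0996) and with library totals (adjusted p = 0.0564). The genes cyp26a1 and cyp26b1, at log2 fold changes of -0.04 and 0.03, did not pass with or without the block, nor did cyp27c1 at 0.04, which turns vitamin A1 into A2. Of 24 tested genes of retinoid handling, edgeR called 0 and DESeq2 called 1 without the block (against 0.99% and 3.79% of all genes). With the block 2 rose and 0 fell (8.33%, against 19.1% of all genes). One of the risers was aldh1a2, which makes retinoic acid (log2 fold change 0.38, edgeR block adjusted p = 0.00599).

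Of the bile acid enzymes, cyp7a1a (394148), the counterpart of the rate-limiting cholesterol 7-alpha-hydroxylase, was at 29.4, 40.6 and 44.7 CPM in control and 17.5, 41.3 and 29.0 CPM in nucleotide pools. Nucleotide pools 1 and 3 were below all control pools and pool 2 was within their range, so only 2 of 3 pairs were lower. The change was -0.39 ± 0.291 (log2, SE, edgeR adjusted p = 0.600), and with the block cyp7a1a fell 1.36-fold (-0.44 ± 0.122 SE, adjusted p = 0.0270). With the block the change was -0.29 without pair 1 (adjusted p = 0.0297), -0.68 without pair 2 (adjusted p = 9.44e-08) and -0.34 without pair 3 (adjusted p = 0.188). The fit without pair 2 drops the pair that ran against the others, so its small p is no stronger evidence. Without the block the change ran from -0.72 without nucleotide pool 2 to -0.12 without nucleotide pool 1. The sterol 12-alpha-hydroxylase cyp8b1 (445281) was at 13.8, 17.4 and 16.5 CPM in control and 20.3, 17.6 and 18.6 CPM in nucleotide pools. The oxysterol hydroxylase cyp39a1 (564475) was at 3.96, 3.52 and 4.09 CPM in control and 3.38, 2.94 and 2.36 CPM in nucleotide pools. In both genes the arms did not overlap, with cyp8b1 higher and cyp39a1 lower in nucleotide pools, and neither passed with the block (edgeR adjusted p = 0.133 and 0.142). These 2 are described for their lack of overlap, after their values were seen. Of 9 tested genes of bile acid handling, 0 were called without the block, and with it 2 rose and 2 fell (44.4%, against 19.1% of all genes). The cholesterol enzymes cyp46a1, cyp46a2 and cyp51, which hydroxylate cholesterol or demethylate lanosterol, lay between 0.10 and 0.23 on the log2 scale and did not pass.

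The remaining 5 members, cyp20a1 and 4 genes of the fatty acid hydroxylase family cyp4, did not pass with or without the block. The gene cyp4v7 (562008) was at 55.6, 70.4 and 68.0 CPM in control and 59.9, 90.7 and 67.2 CPM in nucleotide pools (0.17 ± 0.167 SE, edgeR adjusted p = 0.701). The gene cyp4t8 (387527) was at 35.6, 34.4 and 62.1 CPM in control and 37.6, 30.7 and 46.3 CPM in nucleotide pools (-0.21 ± 0.248 SE, edgeR adjusted p = 0.765). Both genes overlapped between the arms, with pool 2 highest for cyp4v7 and pool 3 highest for cyp4t8. The gene cyp4f3 (100037390) lay between 3.68 and 5.14 CPM in all pools (-0.18 ± 0.194 SE, edgeR adjusted p = 0.720).

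The filter left 11 members untested, and no library held more than 25 counts of any of them. The genes cyp1c1, cyp1c2, cyp2aa3 and cyp2k8 had 0 counts throughout. The others were the gonadal aromatase cyp19a1a, cyp2aa3v1, cyp2aa8, cyp2aa9, cyp2k22, cyp2x6 and cyp8b3. The gene cyp2k22 (393204) had 0, 0 and 0 counts in control and 11, 12 and 7 counts in nucleotide pools. It was thus seen in every nucleotide pool and in no control pool. Against a limit of 3 counts over the control arm, and with the nucleotide counts taken as exact, it was 8.10-fold higher. That limit covers the counting error of the control arm only. Without the filter cyp2k22 did not pass (edgeR adjusted p = 0.0938). The gene cyp2aa8 (450060) had 8, 11 and 25 counts in control and 0, 8 and 7 counts in nucleotide pools, and all nucleotide CPM were below all control CPM (without the filter, edgeR adjusted p = 0.375). The gonadal aromatase cyp19a1a had 0, 3 and 3 counts in control and 4, 6 and 10 counts in nucleotide pools. In CPM its arms overlapped, at 0, 0.155 and 0.125 against 0.140, 0.241 and 0.347.

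In the block fit, more P450 genes passed the test for the replicate number than the test for the arm. The same order held among all genes, at 25.9% for the number and 19.1% for the arm. The number term of the block fit passed for 28 of 56 members (50%), against 25.9% of all genes (edgeR, adjusted p under 0.05). In family 2 it passed for 14 of 28 members, and it passed for 8 of the 16 steroid, bile acid and vitamin enzymes. Number 2 was the lowest for 15 of the 28 and the highest for 11, and number 3 was the highest for 13. The fold between the highest and lowest number was 1.26 to 3.66, with a median of 1.63, and passed 2-fold in 7 members. The number that was highest and the one that was lowest were the same in both arms for 19 of the 28. Over all 56 tested members this was so for 22 (39.3%), against 38.3% of all genes. What a number stands for is not given in the labels.

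**Figure D4:**
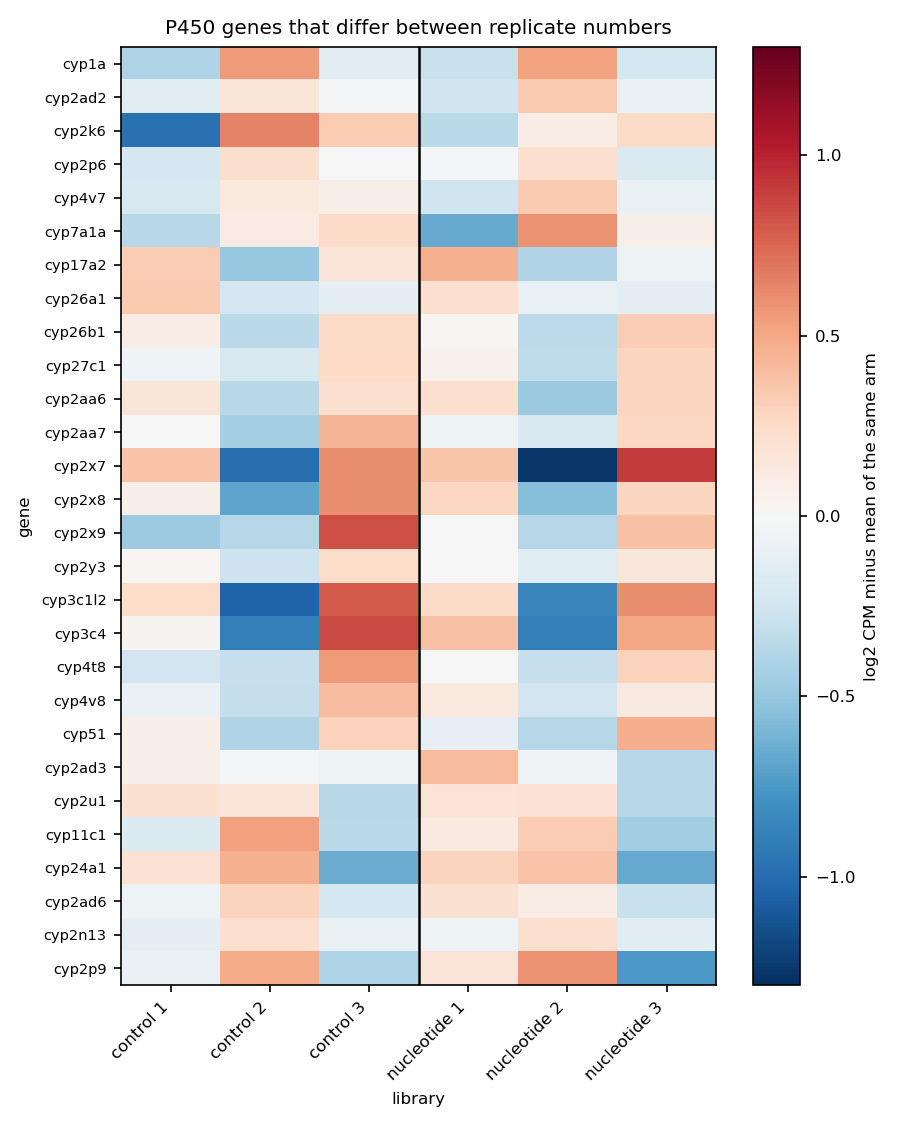
Log2 CPM minus the mean of its arm in each library for the 28 P450 genes whose level differed between replicate numbers. The genes were chosen by the number term, so like colours in columns of the same number follow from the choice. The same numbers were highest and lowest in both arms for 19 of the 28, and cyp3c1l2, cyp3c4 and cyp2x7 were low in pool 2 of both arms.

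The following genes are named for this pattern after their values were seen. In family 3, cyp3c1l2 was at 66.8, 27.5 and 98.2 CPM in control pools 1 to 3 and 72.6, 33.7 and 92.5 CPM in nucleotide pools 1 to 3. Pool 2 was lowest and pool 3 highest in each arm, with a 3.13-fold range between numbers (edgeR, number term, adjusted p = 1.93e-06) and a log2 fold change between the arms of 0.05 ± 0.473 (SE, edgeR adjusted p = 0.977). For cyp3c4, given above, the range was 2.97-fold (adjusted p = 8.83e-05). In family 2, cyp2x7 was at 6.48, 2.54 and 7.56 CPM in control and 6.21, 2.01 and 9.06 CPM in nucleotide pools, again with pool 2 lowest (3.66-fold, edgeR adjusted p = 0.000202). The gene cyp2p9 ran the other way, with pool 2 highest, at 30.5, 45.3 and 24.6 CPM in control and 38.4, 51.6 and 20.4 CPM in nucleotide pools (2.16-fold, edgeR adjusted p = 0.000265). Among the genes called with the block, cyp24a1 differed 2.10-fold between numbers (adjusted p = 1.64e-05) and cyp1a 1.84-fold (adjusted p = 3.34e-05). In both genes the range between numbers was wider than the change between the arms.

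Calls among partner genes of P450 catalysis and of the next steps of metabolism are set beside the 19.1% of all genes that the block called. Of 9 tested electron donors, 0 were called without the block, and with it 2 rose (22.2%). They were cyb5a, by 0.35, and cyb5b, by 0.30 on the log2 scale, which encode cytochrome b5 (edgeR adjusted p = 0.00897 and 0.0380). Of 14 tested genes of haem synthesis and breakdown, 0 were called without the block and 2 with it (14.3%). With it the first enzyme of haem synthesis, alas1, fell by 0.32 on the log2 scale (edgeR adjusted p = 0.00762) and the haem oxygenase hmox1a rose by 0.27 (adjusted p = 0.0447). Of 38 tested UDP-glucuronosyltransferases, which conjugate P450 products, 1 rose and 1 fell with the block (5.26%). Of 14 sulfotransferases 1 rose and 0 fell (7.14%). Without the block edgeR called 0 in either list, and DESeq2 called 1 UDP-glucuronosyltransferase and 0 sulfotransferases. Without the block the median log2 fold change was 0.0005 in electron donors, -0.04 in haem genes, 0.06 in UDP-glucuronosyltransferases and 0.20 in sulfotransferases. It was -0.01 in all genes. Fitted changes were above 0 in 13 of 14 sulfotransferases and in 6326 of all 13336 genes.

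Markers of hepatocytes, enterocytes, pronephros, skeletal muscle, brain and exocrine pancreas were compared by their summed levels. For the counts of markers below, the block called 10.7% of all genes higher and 8.38% lower. Hepatocyte markers were at 6679 to 9060 CPM in control and 7337 to 9683 CPM in nucleotide pools, and with the block 5 of 17 rose (29.4%). Enterocyte markers were at 1784 to 2747 against 1954 to 2231 CPM (1 of 11 fell, 9.09%). Pronephros markers were at 657 to 794 against 672 to 729 CPM (2 of 9 rose and 2 fell, 22.2% each). These ranges overlapped. Skeletal muscle markers did not overlap, at 41844 to 50922 CPM in control and 52065, 52087 and 84962 CPM in nucleotide pools 1 to 3. Of these, 16 of 23 rose with the block (69.6%), and 2 passed without it (8.7%, against 0.99% of all genes). DESeq2 without the block called 9 of the muscle markers (against 3.79% of all genes). Brain markers did not overlap either, at 3116 to 3291 against 3388 to 3669 CPM (4 of 10 rose, 40%). Exocrine pancreas markers overlapped, at 15315 to 19025 against 14048 to 16021 CPM (4 of 11 fell, 36.4%). The part of tissue makeup in the P450 values was not tested.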

How the data were processed

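RNA of 6 pools of whole zebrafish, 3 per arm, was measured by Illumina sequencing, per the labels. The deposited table has 14681 rows of raw read counts per gene; 69 repeated symbols had equal counts and were dropped, leaving 14612 genes. The submitters' processing notes name TopHat2, HTSeq, DESeq2 and GRCz10 without versions. For annotation, strand and multiply matching reads, the sources used here give no settings. The table also holds the authors' own comparison, per the file headers a normalized mean signal, a log2 fold change with its standard error, a Wald score, and a p-value with its adjusted form.

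The counts were analysed with edgeR 4.0.16 (R 4.3.3). The filter was filterByExpr (minimum count 10, minimum total 15; 13336 genes kept), the scaling TMM (trimmed mean of M values), and the test the 2-sided quasi-likelihood F test on the arm, adjusted by Benjamini-Hochberg over all genes kept, with a threshold of 0.05. Each SE is the absolute log2 change over the square root of F. CPM use the TMM-scaled total. Alternatives were DESeq2 1.42.0, other scalings, no filter, and each pool left out. The code was tested on simulated data.

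Across genes, deviations of log2 CPM from the arm mean correlated at 0.546, 0.625 and 0.617 between pools of the same number, above 0.1 in each pair, and the numbers were therefore taken as pairs. This rests on the counts, since the labels give the numbers no meaning. The library names also end in numbers, which match within pairs 2 and 3 but differ within pair 1. What those stand for is not given either. The unpaired fit is the main one.

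The members and lists were chosen with earlier results of these data known. Members given in full are those past the threshold in either fit and the 3 with the smallest unpaired p in each class; any other is marked as chosen after seeing its values, or named for overlap, share of reads or low counts. Lengths of genes or proteins were not used here, so levels are not ranked between genes and no sequence is shown. Limits for 0 counts use 3 counts and cover the counting error of those 0 counts only.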

Additional observations from a re-analysis of the deposited data

How the results depend on the processing

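Without the block, 0 members were called under every scaling and filter, with DESeq2, and with each pool left out. Over all genes these fits called 104 to 132, or 494 with DESeq2 and 39 to 80 with a pool left out. With the replicate block 9 members (3 higher, 6 lower) and 2550 genes were called. Leaving out pair 1, 2 or 3 gave 13, 9 and 4 members (3, 4 and 2 higher; 10, 5 and 2 lower) and 2135, 2012 and 1673 genes. Both other alternatives with the block were chosen after seeing the data. The block with library totals gave 10 members (1 higher, 9 lower) and 3575 genes (686 higher, 2889 lower, against 1432 and 1118). The block with DESeq2 gave 7 members (3 higher, 4 lower) and 1573 genes. The number term passed for 28 members, or 25 with library totals.

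Some log2 fold changes near 0 or with wide spread changed sign. With library totals cyp1b1 was at -0.077, or -0.073 with the block. With 1 pool left out, values ran from -0.55 to 0.089 for cyp1a, -0.19 to 0.0096 for cyp1d1, -0.094 to 0.17 for cyp1b1, -0.65 to 0.21 for cyp3c4, -0.16 to 0.034 for cyp3a65, -0.024 to 0.29 for cyp4v7 and -0.36 to 0.13 for cyp4t8. The positive value of cyp1a came without control pool 2. With the block and without pair 3, cyp3a65 was at 0.037. Without changing sign, leaving out 1 pool without the block moved cyp2u1 from -0.49 to -0.16, cyp11c1 from -0.81 to -0.32 and cyp2k6 from 0.41 to 1.08. The cause was not tested. Depth limits members with under about 25 counts per library, and with 3 pools per arm the median SE of 0.197 on the log2 scale limits the rest.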
